A study of Homo sapiens with 11 samples.

Results

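The human mitochondrial genome encodes 37 genes, and all 37 were rows of the count table, out of 58721 gene IDs. They were chosen by location alone, as every ID that GENCODE release 29 places on the mitochondrial chromosome of GRCh38 (hg38), whatever its counts. They comprise 13 mRNAs for subunits of the respiratory chain and ATP synthase, 2 rRNAs of the mitochondrial ribosome and 22 tRNAs. GENCODE places 28 of them on the + strand of the deposited reference and 9 on the - strand, the latter being MT-ND6 and 8 tRNAs.

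The cells were A375, an established line from a human melanoma. It is known to carry an activating BRAF mutation, and its genotype is labelled wild type in all groups. Poly(A) RNA was measured. The 11 libraries came from untreated parental cells (1 library), from persister cells grown with 2 nM trametinib over 8 weeks (5 libraries) and from cells whose drug had been withdrawn for 4 weeks (5 libraries). Trametinib inhibits the MEK kinases downstream of BRAF. The withdrawn samples carry the culture numbers of the persister samples, and no label says whether the numbered cultures were selected independently, so the p-values measure the spread between these samples.

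Both strands of mitochondrial DNA are transcribed by the polymerase POLRMT with TFAM and TFB2M, as long transcripts that run through many genes. The tRNAs lie between most of the mRNAs and rRNAs, and their excision releases the neighbouring RNAs. Most of the mRNAs, and the rRNAs, then receive short poly(A) tails from MTPAP. The level of each RNA thus depends on its processing and stability as well as on transcription. In melanoma cells under BRAF or MEK inhibition, a rise of oxidative phosphorylation genes is well known.

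Total counts were 56513920 to 82984566 per library, and 1874585 to 6600643 of them fell on mitochondrial genes. Of the 37 genes, 23 passed the filter on low counts: all 13 mRNAs, both rRNAs and 8 tRNAs. Of 10 melanoma and melanocyte lineage genes, all but TYR passed, and their changes in persister against parental cells went both ways: DCT, TYRP1, MLANA and PMEL were higher (log2 fold changes 7.17, 5.13, 3.80 and 2.12) and SOX10, S100B and S100A1 lower (-3.61, -2.39 and -1.70). Their summed level was 817.5 CPM (counts scaled by library size) in the parental library, 407.7 to 1021 in persister and 1082 to 1191 in withdrawn libraries. Of 8 fibroblast genes, each of which had counts in each group, 6 were higher and 1 was lower in persister than in parental cells. Their summed level was 8.78 CPM in the parental library, 70.1 to 354.3 in persister and 21.2 to 32.2 in withdrawn libraries. Of 7 leukocyte genes 5 were tested, of which PTPRC was higher in persister than in parental cells (0.0153 CPM against 0.296 ± 0.147, adjusted p = 0.0416, edgeR) and LYZ lower (6.79 CPM against 0.169 ± 0.104, adjusted p = 7.49e-06). The summed level of the list, most of it LYZ outside the persister libraries, was 7.05 CPM in the parental library, 0.507 to 0.874 in persister and 3.46 to 4.98 in withdrawn libraries. Whether cells of another type had a part in the mitochondrial values was not tested. In such bulk RNA a change in the share of cells and a change in RNA per cell cannot be told apart.

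In persister cells, 13 of the 23 tested mitochondrial genes were higher than in the parental library and 0 were lower by edgeR's quasi-likelihood test, at an adjusted p under 0.05. They were MT-RNR2, MT-ND1, MT-ND2, MT-CO1, MT-CO2, MT-CO3, MT-ND6, MT-CYB and the tRNAs MT-TL1, MT-TN, MT-TC, MT-TY and MT-TP. Over all 23693 genes tested, 16.1% were called higher in that comparison. The median log2 fold change was 1.39 for the 23 genes and 0.09 for all genes. For 19 of the 23 genes, all 5 persister values lay above the parental value, which held for 32.7% of all genes. Because the parental group is 1 library, its spread is assumed to be that of the other groups. In a fit of only the 6 libraries compared, most of the 13 genes lost the call, and fewer of all genes were called. The log2 fold changes hardly moved there (MT-RNR2 1.69, MT-CO2 1.92 and MT-ND6 1.47).

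After withdrawal, 20 of the 23 genes were lower than in persister cells and 0 were higher, where 28.0% of all genes were called lower and 52.5% in either direction. The exceptions were MT-ND4L, MT-ND4 and MT-TS1. The median log2 fold change was -1.15, against -0.03 for all genes, and for 14 of the 23 genes all withdrawn values lay below all persister values, which held for 20.3% of all genes. Without persister libraries 1 and 5, which were the highest for most of the genes, 16 of 22 tested genes were lower. In that fit 6625 of all 23075 genes tested were called lower. The comparisons with persister cells share the persister libraries, so that a fall after withdrawal is not independent of a rise before it.

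Between withdrawn and parental cells, 0 of the 23 genes were called by edgeR, where 0.312% of all genes were called higher and 0.118% lower. At an unadjusted p under 0.05 edgeR gave 1 gene, MT-TF. DESeq2 called 1 gene lower at an adjusted p under 0.05, where 775 of 19506 genes were called higher and 409 lower. With limma-voom 0 were called, where 57 of 23693 genes were called higher and 52 lower. With the 6 withdrawn and parental libraries alone, edgeR called more mitochondrial genes, in both directions, and far more of all genes. Log2 fold changes in that fit were 0.51 for MT-CO1, 0.46 for MT-CO2, 0.42 for MT-ND4L and 0.52 for MT-ND4. They were 0.27 for MT-ND5, 0.60 for MT-ND6, -1.29 for MT-TF, -0.36 for MT-ND1 and -0.36 for MT-ND2. In the fit of all 11 libraries the median log2 fold change of the 23 genes was 0.27, against 0.05 for all genes. All withdrawn values lay above the parental value for 11 of the 23 genes, which held for 33.0% of all genes, and below it for 5, against 30.8% of all genes.

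**Figure D1:**
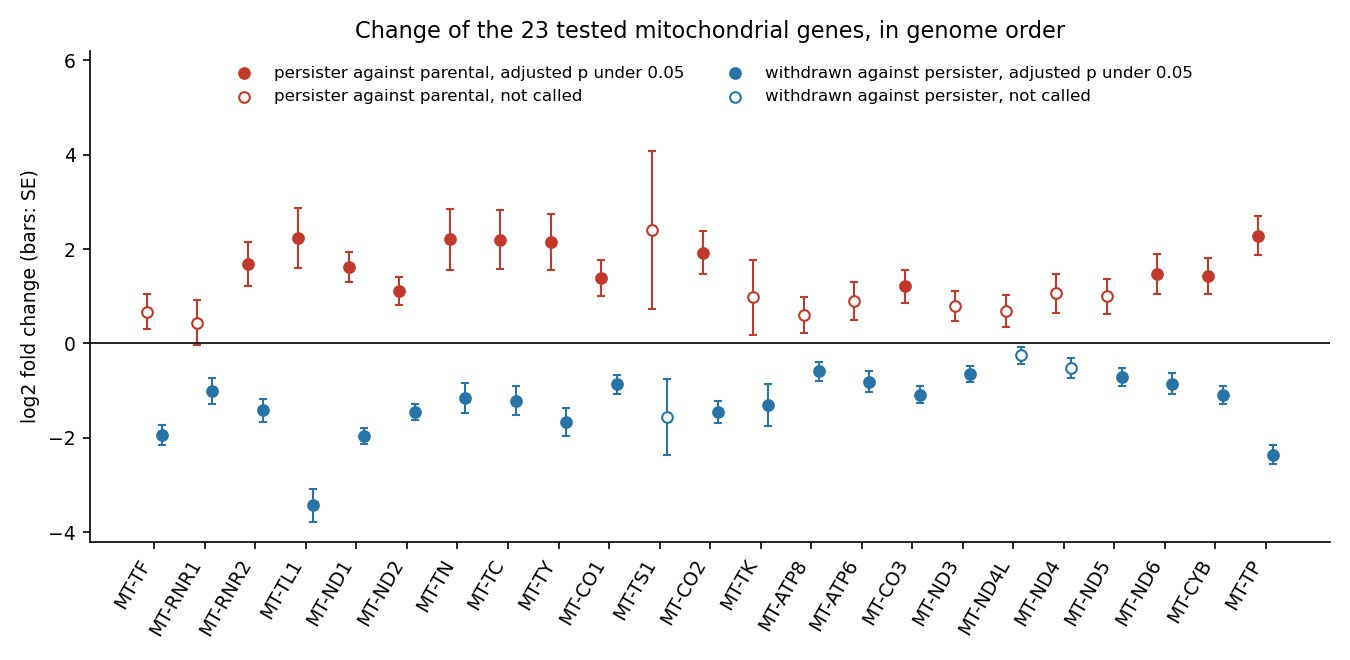
Log2 fold change of the 23 tested mitochondrial genes in genome order, persister against parental (red) and withdrawn against persister (blue), with SE bars and filled points where edgeR's adjusted p was under 0.05. All 23 red points lie above 0 and all 23 blue points below it, with 13 and 20 of them filled.

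The 2 rRNAs moved unequally. MT-RNR1 encodes the small-subunit rRNA of the mitochondrial ribosome (chrM, positions 648 to 1601) and MT-RNR2 the large-subunit rRNA (positions 1671 to 3229), with only the tRNA gene MT-TV between them.

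MT-RNR2 stood at 2356 CPM in the parental library. The persister libraries 1 to 5 gave 9463, 4698, 6878, 4956 and 11937 CPM, and the withdrawn libraries 1 to 5 gave 2604, 3043, 2453, 2967 and 3102 CPM. All persister values were above every other library. The rise was 3.22-fold (log2 fold change 1.69 ± 0.47 SE, adjusted p = 0.0181), and the fall after withdrawal was 2.68-fold (-1.42 ± 0.24, adjusted p = 4.53e-04, edgeR).

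MT-RNR1 stood at 1293 CPM in the parental library, at 2501, 951.3, 2030, 1274 and 2037 CPM in persister libraries 1 to 5, and at 767.7, 752.3, 594.1, 1132 and 1118 CPM in withdrawn libraries 1 to 5. Persister libraries 2 and 4 were below the parental value, and persister 2 lay among the withdrawn values. Against the parental library its log2 fold change was 0.44 ± 0.48 SE (adjusted p = 0.504), and after withdrawal it fell 2.01-fold (-1.01 ± 0.27, adjusted p = 0.00836, edgeR). Without persister libraries 1 and 5 the fall lost its call (log2 fold change -0.70, adjusted p = 0.0693).

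The number of MT-RNR2 counts per MT-RNR1 count was 1.82 in the parental library, 3.39 to 5.86 in the persister libraries and 2.62 to 4.13 in the withdrawn libraries. The parental ratio was thus the lowest of the 11, and the persister and withdrawn ranges overlapped. Since rRNAs are not the target of poly(A) selection, their yield can vary with the selection. A list of 9 abundant RNAs without a poly(A) tail, with 10 gene IDs because RMRP has 2, summed to 8.89 CPM in the parental library, 5.63 to 31.5 in persister and 7.44 to 14.7 in withdrawn libraries. Of the 10 IDs 7, 8 and 6 were at 0 in all libraries of the group. Its part in the rRNA values was not tested.

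As a share of the mitochondrial counts of a library, the rRNAs made up 12.7% in the parental library (95% Wilson interval 12.68% to 12.78%, counting error only). The share was 13.3% ± 1.32 in the persister libraries and 10.55% ± 1.10 in the withdrawn libraries (SD, n = 5 each). The difference of 2.77 percentage points between persister and withdrawn libraries had an exact two-sided permutation p of 0.00794, the smallest that 5 against 5 allows, and an adjusted p of 0.0106 over the 4 shares tested. With the cultures as pairs, exact sign flips gave an adjusted p of 0.0833, since 5 pairs cannot give a p below 0.0625.

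**Figure D2:**
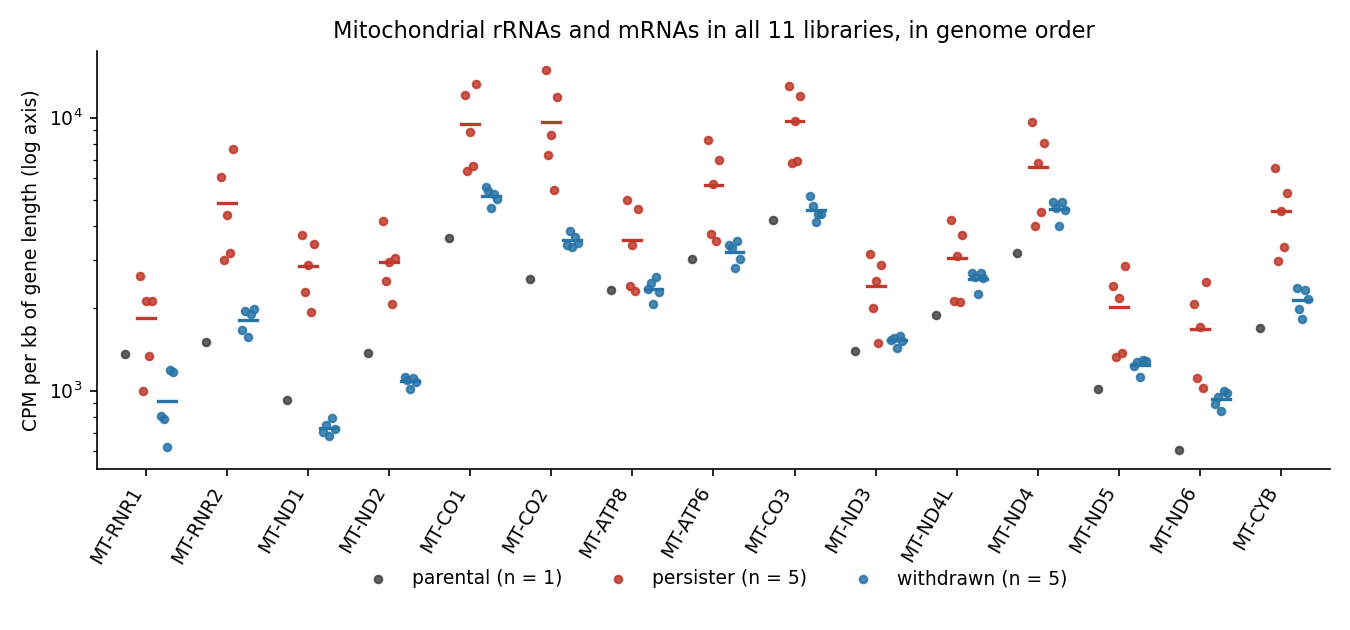
CPM per kilobase of gene length (log axis) of the 2 rRNAs and 13 mRNAs in each of the 11 libraries, with bars at the means of the 5 persister and 5 withdrawn libraries. Persister points reach highest for each gene, the withdrawn points spread less than the persister points, and MT-CO3, MT-CO1 and MT-CO2 have the highest persister means.

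MT-ND1, MT-ND2, MT-ND3, MT-ND4L, MT-ND4, MT-ND5 and MT-ND6 encode the membrane-arm subunits of complex I, the NADH dehydrogenase at the entry of the respiratory chain. Their log2 fold changes ran from 0.69 (MT-ND4L) to 1.62 (MT-ND1) in persister against parental cells. After withdrawal they ran from -0.25 (MT-ND4L) to -1.97 (MT-ND1). Of the 7, 3 were called higher in persister cells (MT-ND1, MT-ND2 and MT-ND6). After withdrawal 5 of the 7 were called lower (all but MT-ND4L and MT-ND4). Differences between the genes were not tested.

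MT-ND1 (positions 3307 to 4262) had 885.8 CPM in the parental library, 3548, 2189, 2760, 1853 and 3303 CPM in persister libraries 1 to 5, and 671.5, 716.6, 654.0, 756.4 and 688.6 CPM in withdrawn libraries 1 to 5. All 5 persister values were above, and all 5 withdrawn values below, the parental value. It rose 3.08-fold (log2 fold change 1.62 ± 0.32 SE, adjusted p = 0.00304) and fell 3.92-fold (-1.97 ± 0.17, adjusted p = 2.93e-06, edgeR), the strongest fall of the 13 mRNAs.

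MT-ND2 (positions 4470 to 5511) had 1436 CPM in the parental library, 4371, 2624, 3087, 2170 and 3188 CPM in persister libraries 1 to 5, and 1057 to 1166 CPM in the withdrawn libraries. The 3 groups did not overlap, with the withdrawn libraries lowest. It rose 2.15-fold (1.10 ± 0.30 SE, adjusted p = 0.0154) and fell 2.74-fold (-1.45 ± 0.16, adjusted p = 1.85e-05, edgeR).

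MT-ND4 (positions 10760 to 12137) and MT-ND4L (positions 10470 to 10766) are carried by 1 shared mRNA. MT-ND4 had 4380 CPM in the parental library, 13298, 5535, 9391, 6240 and 11139 CPM in persister libraries 1 to 5, and 6777, 6425, 5518, 6751 and 6317 CPM in withdrawn libraries 1 to 5. Persister libraries 2 and 4 lay among the withdrawn values. Its log2 fold changes were 1.06 ± 0.41 SE (adjusted p = 0.0669) and, after withdrawal, -0.52 ± 0.22 (adjusted p = 0.0614), neither past the threshold with edgeR. DESeq2 called both, at adjusted p = 0.0269 and 0.0388.

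MT-ND4L had 564.0 CPM in the parental library, 1253, 632.8, 922.9, 628.0 and 1102 CPM in persister libraries 1 to 5, and 799.4, 772.5, 668.4, 800.4 and 765.9 CPM in withdrawn libraries 1 to 5. Persister libraries 2 and 4 were below all 5 withdrawn libraries. Its log2 fold changes were 0.69 ± 0.34 SE (adjusted p = 0.139) and, after withdrawal, -0.25 ± 0.18 (adjusted p = 0.266). The latter is the smallest change after withdrawal among the 23 genes, and without persister libraries 1 and 5 it was 0.06 in the other direction (adjusted p = 0.703, edgeR).

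The reading frames of that shared mRNA overlap by 7 bases, and those of MT-ATP8 and MT-ATP6, the other shared mRNA, by 46. The stretches are printed on the + strand with 12 bases on each side and the overlap in capitals, because a read that covers only the overlap belongs to both genes.
MT-ND4L and MT-ND4: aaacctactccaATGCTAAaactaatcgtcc
MT-ATP8 and MT-ATP6: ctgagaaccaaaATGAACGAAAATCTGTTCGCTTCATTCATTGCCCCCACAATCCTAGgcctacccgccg

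The overlaps take 7 of the 297 bases of MT-ND4L and 46 of the 207 bases of MT-ATP8. Although MT-ND4L and MT-ND4 share their mRNA, MT-ND4 counts per MT-ND4L count were 7.77 in the parental library, 8.75 to 10.6 in the persister libraries and 8.25 to 8.48 in the withdrawn libraries. MT-ATP6 counts per MT-ATP8 count were 4.28, 5.00 to 5.50 and 4.34 to 4.77 in the same order. In both pairs the longer downstream gene took more counts per count of its partner in each persister library than in any other library.

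MT-ND3 and MT-ND5 are the remaining complex I genes of the + strand. MT-ND3 had 481.5 CPM in the parental library, 517.8 to 1091 in persister and 497.2 to 550.1 in withdrawn libraries, so that persister 4 lay among the withdrawn values. MT-ND5 had 1844 CPM in the parental library, 2398 to 5162 in persister and 2036 to 2344 in withdrawn libraries, which did not overlap. Both missed the threshold against the parental library (MT-ND3 0.79 ± 0.31 SE, adjusted p = 0.0740; MT-ND5 1.00 ± 0.37, adjusted p = 0.0589). Both fell after withdrawal, MT-ND3 by 0.66 ± 0.17 and MT-ND5 by 0.71 ± 0.20 on the log2 scale (adjusted p = 0.00683 and 0.0101, edgeR). DESeq2 called both also against the parental library (adjusted p = 0.0472 and 0.0246).

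MT-ND6 (positions 14149 to 14673) is the only mRNA gene annotated on the - strand, whose transcript otherwise carries tRNAs. It had 318.4 CPM in the parental library, 1088, 582.6, 900.2, 536.6 and 1309 CPM in persister libraries 1 to 5, and 467.0, 495.2, 442.7, 521.7 and 516.4 CPM in withdrawn libraries 1 to 5. All persister values were above all withdrawn values, and all withdrawn values above the parental one. It rose 2.77-fold (log2 fold change 1.47 ± 0.43 SE, adjusted p = 0.0224) and fell 1.81-fold (-0.85 ± 0.22, adjusted p = 0.00689, edgeR). Against the parental library the call was lost with no filter on low counts (adjusted p = 0.0515).

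Its share of the mitochondrial mRNA counts was 1.27% in the parental library, 1.46% ± 0.17 in persister and 1.56% ± 0.10 in withdrawn libraries (SD, n = 5 each). That difference of -0.10 percentage points (persister minus withdrawn) did not pass (exact two-sided permutation p = 0.294, adjusted over the 4 shares 0.294). Without persister 5 it was -0.165 points and passed (adjusted p = 0.0476). With the mRNAs of complex I alone as the denominator it was 0.106 points, in the other direction (adjusted p = 0.794).

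MT-CYB (positions 14747 to 15887) encodes cytochrome b, the only complex III subunit made in mitochondria. It had 1931 CPM in the parental library, 7486, 3417, 5210, 3820 and 6061 CPM in persister libraries 1 to 5, and 2092 to 2706 CPM in the withdrawn libraries. The groups did not overlap. It rose 2.69-fold (1.43 ± 0.38 SE, adjusted p = 0.0144) and fell 2.13-fold (-1.09 ± 0.20, adjusted p = 6.84e-04, edgeR).

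MT-CO1, MT-CO2 and MT-CO3 encode the core of complex IV, cytochrome c oxidase, with MT-CO1 and MT-CO2 holding the redox metals. All 3 rose in persister cells and fell after withdrawal. MT-CO2 (positions 7586 to 8269) had 1748 CPM in the parental library, 10246, 5001, 5908, 3728 and 8137 CPM in persister libraries 1 to 5, and 2327, 2632, 2293, 2504 and 2377 CPM in withdrawn libraries 1 to 5. The groups did not overlap, and persister 4, the lowest of its group, was still above every withdrawn library. Its rise of 3.78-fold (log2 fold change 1.92 ± 0.46 SE, adjusted p = 0.00858) was the highest of the 13 mRNAs, and it fell 2.72-fold (-1.44 ± 0.23, adjusted p = 2.93e-04, edgeR).

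MT-CO1 (positions 5904 to 7445) had 5563 CPM in the parental library, 18614, 9804, 13718, 10232 and 20452 CPM in persister libraries 1 to 5, and 7205 to 8619 CPM in the withdrawn libraries. It rose 2.62-fold (1.39 ± 0.38 SE, adjusted p = 0.0173) and fell 1.82-fold (-0.87 ± 0.20, adjusted p = 0.00336, edgeR). MT-CO3 (positions 9207 to 9990) had 3294 CPM in the parental library, 5368 to 10277 in persister and 3247 to 4038 in withdrawn libraries. It rose 2.31-fold (1.21 ± 0.35 SE, adjusted p = 0.0207) and fell 2.12-fold (-1.09 ± 0.18, adjusted p = 4.30e-04, edgeR). For both genes persister and withdrawn libraries did not overlap, and the parental value of MT-CO3 lay within the withdrawn range.

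MT-ATP8 (positions 8366 to 8572) and MT-ATP6 (positions 8527 to 9207) encode membrane subunits of complex V, the ATP synthase. Neither was called against the parental library. MT-ATP8 had 483.7 CPM in the parental library, 1034, 499.7, 705.4, 479.0 and 956.7 CPM in persister libraries 1 to 5, and 428.4 to 538.3 CPM in the withdrawn libraries, so that persister 2 and 4 lay among the withdrawn values. Its log2 fold changes were 0.60 ± 0.37 SE (adjusted p = 0.236) and, after withdrawal, -0.59 ± 0.21 (adjusted p = 0.0312, edgeR). The fall of MT-ATP8 lost its call in 9 of 19 alternatives, with the culture number as a block (adjusted p = 0.0666), with limma-voom, with no filter, without persister 1 or 5 or both, and without withdrawn 1, 3 or 5.

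MT-ATP6 had 2068 CPM in the parental library, 2408 to 5625 in persister and 1920 to 2396 in withdrawn libraries, which did not overlap. Its log2 fold changes were 0.90 ± 0.40 SE (adjusted p = 0.110) and, after withdrawal, -0.81 ± 0.22 (adjusted p = 0.00831, edgeR).

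Levels of different genes can be compared only per length, and the order here is that of assigned reads. Reads given to close copies in the nuclear genome are left out. In the parental library these were 30.3 per 100 MT-ND2 counts, 20.3 per 100 for MT-ATP6 and 8.78 per 100 for MT-CO1. The copies of MT-CO3, MT-ND1, MT-CO2 and MT-ATP8 took 1.44, 1.07, 0.424 and 0.0917 per 100. The rRNAs are not the target of poly(A) selection. In the parental library the order of CPM per kilobase was MT-CO3 (4202), MT-CO1 (3608), MT-ND4 (3179), MT-ATP6 (3037), MT-CO2 (2555), MT-ATP8 (2337), MT-ND4L (1899), MT-CYB (1692), MT-RNR2 (1511), MT-ND3 (1392), MT-ND2 (1378), MT-RNR1 (1356), MT-ND5 (1018), MT-ND1 (926.6) and MT-ND6 (606.4). In persister cells MT-CO3 (9719 ± 2861), MT-CO2 (9655 ± 3794) and MT-CO1 (9445 ± 3130 SD, n = 5 each) differed by less than their spread. In withdrawn cells MT-CO1 (5184 ± 350), MT-ND4 (4614 ± 370), MT-CO3 (4581 ± 386) and MT-CO2 (3547 ± 205) led. MT-CO2 thus stood below MT-ND4 and MT-ATP6 per kilobase in the parental library, and above them by persister mean (MT-ND4 6619 ± 2372, MT-ATP6 5654 ± 2047).

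The composition of the mitochondrial mRNA counts differed between persister and withdrawn libraries. The part of library preparation and gene length in this was not tested. For 7 of the 13 mRNAs the share of the mRNA counts did not overlap between the 5 persister and 5 withdrawn libraries. By CPM, which is another measure, these libraries did not overlap for 20.3% of all genes with withdrawn higher and 20.3% with withdrawn lower. The mRNA shares sum to 100% within a library, so a higher share of 1 gene lowers others, and they are given as a description with no test.

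MT-ND1 took 3.54% in the parental library, 4.31% to 5.30% in persister and 2.03% to 2.33% in withdrawn libraries. MT-CO2 took 6.99%, 9.20% to 12.4% and 7.02% to 8.20% in the same order. MT-ND2 took 5.74%, 4.196% to 6.354% and 3.52% to 3.77%, and MT-CO3 took 13.2%, 12.4% to 13.4% and 10.7% to 12.2%. These 4 genes had their higher shares in persister cells.

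In the other direction, MT-ND4L took 2.26% in the parental library, 1.45% to 1.56% in persister and 2.38% to 2.48% in withdrawn libraries. MT-ND4 took 17.5%, 13.4% to 16.2% and 19.7% to 20.8%, and MT-ATP8 took 1.94%, 1.18% to 1.26% and 1.47% to 1.65%. For MT-ND4L the range within each group was narrow although the CPM of the persister libraries spanned 628.0 to 1253. Counts of MT-ND1 per count of MT-ND4 were 0.202 in the parental library, 0.267 to 0.396 in persister and 0.0991 to 0.118 in withdrawn libraries.

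**Figure D3:**
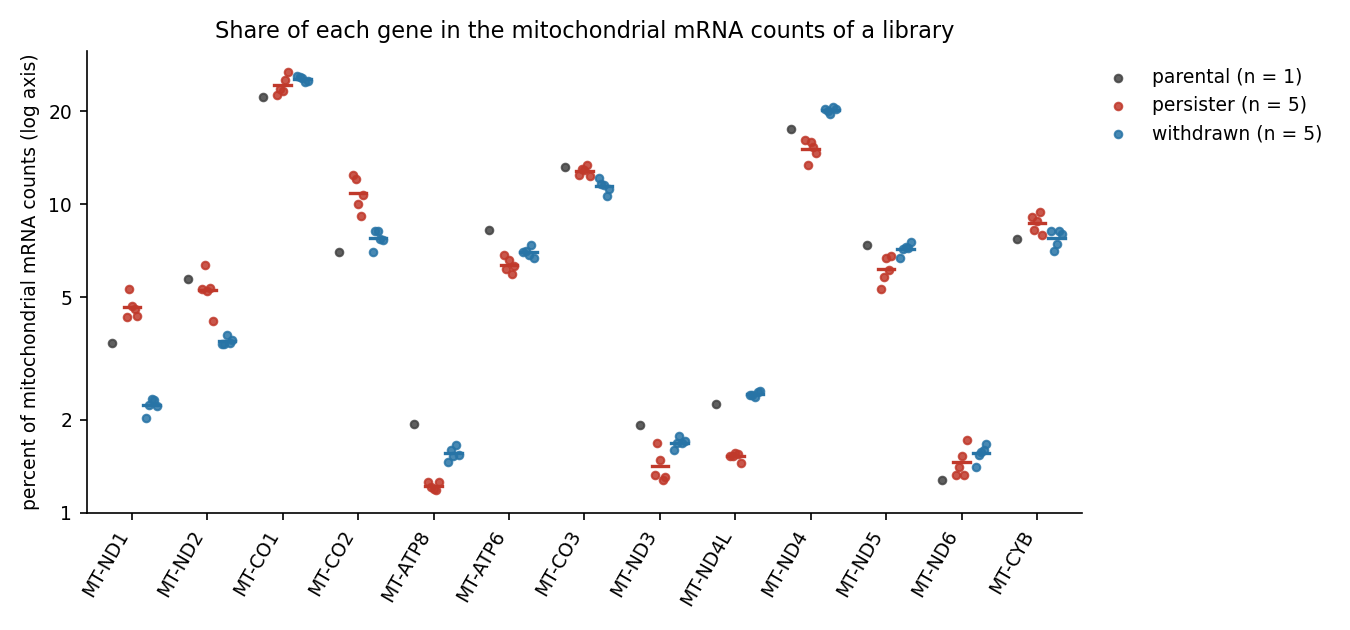
Percent of the mitochondrial mRNA counts of each library taken by each of the 13 mRNAs (log axis), with bars at the means of the 5 persister and 5 withdrawn libraries. Persister and withdrawn points do not overlap for MT-ND1, MT-ND2, MT-CO2 and MT-CO3, which are higher in persister cells, and for MT-ND4L, MT-ND4 and MT-ATP8, which are lower.

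Of the 13 mRNA genes, 6 end within a codon as annotated, and the stop codon of their mRNA is completed by the poly(A) tail. Their last 21 bases are printed on the gene's strand, with the unfinished codon in capitals, since for these genes the tail that poly(A) selection captures is also part of the reading frame.
MT-ND1: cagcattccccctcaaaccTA
MT-ND2: cttttatactaataatcttaT
MT-CO3: ccatctattgatgagggtctT
MT-ND3: aaggattagactgaaccgaaT
MT-ND4: tcattaccgggttttcctctT
MT-CYB: acaaaatactcaaatgggccT
In persister against parental cells MT-ND1, MT-ND2, MT-CO3 and MT-CYB of these 6 were called higher. Of the other 7, which end with a full codon as annotated, MT-CO1, MT-CO2 and MT-ND6 were. The last annotated base of MT-ATP6, 1 of these 7, is also the first base of MT-CO3 (position 9207). Genes of both kinds were thus among those called.

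The tRNAs, which carry no long poly(A) tail and are shorter than the fragments that such libraries usually hold, took few counts. All 22 together had 1598 to 12508 counts per library. MT-TP, MT-TC, MT-TN and MT-TY, all on the - strand, held 93.2% to 97.8% of them in each library. Because the strand setting of the counting is not known, it cannot be told from the counts whether reads on these 4 genes, the other - strand tRNAs and MT-ND6 came from the gene's own strand. Another 6 tRNA genes (MT-TV, MT-TI, MT-TQ, MT-TG, MT-TR and MT-TS2) had 0 counts in all 11 libraries, which allows up to 3 counts over the libraries, or 0.00405 CPM. This limit holds for reads assigned to the gene, not for the level of the RNA. Each of these 6 genes touches or overlaps a neighbouring gene, so a read longer than the gene can also cover its neighbour. How such reads were counted is not known. The other 8 of the 14 untested tRNA genes had at most 12 counts in a library, and MT-TE, a - strand gene beside MT-ND6, had the highest. MT-TE had 8 counts in the parental library, 10, 6, 5, 12 and 8 in persister libraries 1 to 5, and 2, 1, 2, 1 and 1 in withdrawn libraries 1 to 5. With no filter on low counts, these 8 genes entered the fit, and MT-TE was lower after withdrawal (log2 fold change -2.41 ± 0.60 SE, adjusted p = 0.00421, edgeR), on few counts.

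**Figure D4:**
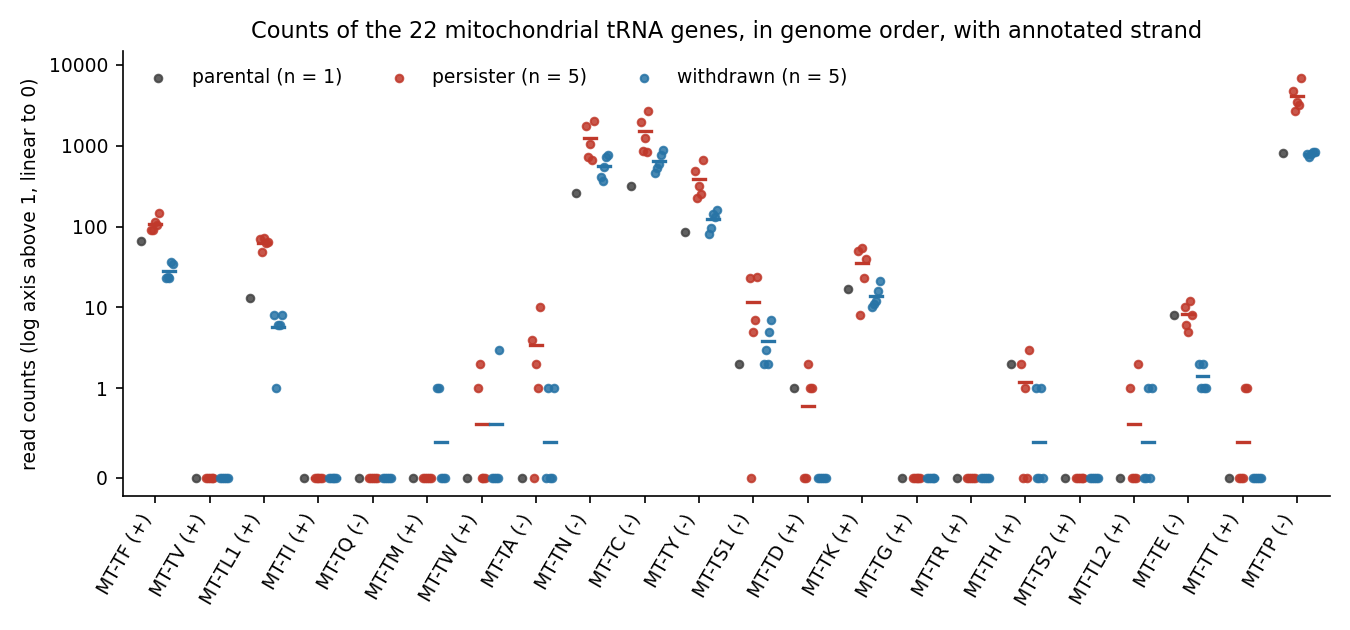
Read counts of the 22 tRNA genes in each of the 11 libraries (log axis above 1, linear down to 0), with the annotated strand and bars at the means of the 5 persister and 5 withdrawn libraries. MT-TP has 733 to 6839 counts, and 6 genes have 0 in all libraries.

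The 4 tRNA genes of the - strand and the 2 of the + strand with the most counts are printed on the gene's strand as DNA, 5′ to 3′, with the anticodon in capitals, to show which tRNA genes the reads fell on. The tRNAs MT-TF and MT-TL1 lie on the + strand and flank the rRNA genes. MT-TN, MT-TC and MT-TY form a cluster between MT-ND2 and MT-CO1, and MT-TP lies beside the control region.
MT-TF: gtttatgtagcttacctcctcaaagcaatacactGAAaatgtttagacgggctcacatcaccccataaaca
MT-TL1: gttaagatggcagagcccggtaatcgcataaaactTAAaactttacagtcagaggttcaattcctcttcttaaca
MT-TN: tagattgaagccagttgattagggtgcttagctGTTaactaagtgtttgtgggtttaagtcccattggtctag
MT-TC: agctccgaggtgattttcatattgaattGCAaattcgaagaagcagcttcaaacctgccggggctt
MT-TY: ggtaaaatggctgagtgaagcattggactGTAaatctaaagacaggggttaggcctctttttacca
MT-TP: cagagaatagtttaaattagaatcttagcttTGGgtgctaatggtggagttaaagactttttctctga

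MT-TP (tRNA for proline, positions 15956 to 16023) had 12.6 CPM in the parental library, 72.1, 50.1, 52.4, 38.6 and 93.4 CPM in persister libraries 1 to 5, and 11.8, 12.8, 11.7, 12.1 and 11.5 CPM in withdrawn libraries 1 to 5. The parental value lay within the withdrawn range and below all persister values. It rose 4.87-fold (log2 fold change 2.28 ± 0.41 SE, adjusted p = 0.00186) and fell 5.12-fold (-2.36 ± 0.21, adjusted p = 3.98e-06, edgeR).

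MT-TL1 (tRNA for leucine, positions 3230 to 3304) lies between MT-RNR2 and MT-ND1. It had 13 counts in the parental library, 71, 48, 72, 62 and 64 counts in persister libraries 1 to 5, and 8, 1, 6, 6 and 8 counts in withdrawn libraries 1 to 5. The 3 groups did not overlap. It rose 4.69-fold (2.23 ± 0.64 SE, adjusted p = 0.0205) and fell 10.8-fold (-3.43 ± 0.35, adjusted p = 1.15e-05, edgeR), the steepest fall of the 23 genes, on few counts.

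MT-TF (tRNA for phenylalanine, positions 577 to 647) lies before MT-RNR1. It had 66 counts in the parental library, 90, 90, 115, 105 and 146 in persister libraries 1 to 5, and 23, 24, 23, 36 and 34 in withdrawn libraries 1 to 5. The withdrawn libraries were thus below the parental as well as the persister libraries. Its log2 fold changes were 0.67 ± 0.37 SE against the parental library (adjusted p = 0.182), -1.95 ± 0.21 after withdrawal (adjusted p = 1.75e-05) and -1.27 ± 0.33 for withdrawn against parental cells (adjusted p = 0.109, edgeR). DESeq2 called the last of these (adjusted p = 0.0197), and edgeR called it without persister libraries 1 and 5 (adjusted p = 0.0373).

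MT-TN, MT-TC and MT-TY, the tRNAs for asparagine, cysteine and tyrosine, rose by similar factors of 4.60, 4.59 and 4.43 in persister cells. MT-TC had 4.86 CPM in the parental library, 10.3 to 36.3 in persister and 6.82 to 12.3 in withdrawn libraries. MT-TN had 4.01, 8.21 to 27.9 and 6.09 to 10.54 CPM, and MT-TY had 1.30, 3.09 to 9.19 and 1.20 to 2.23 CPM, in the same order. Persister 4 lay among the withdrawn libraries for MT-TN and MT-TC and above them for MT-TY. All 3 rises passed (adjusted p = 0.0240, 0.0222 and 0.0183, edgeR) and all 3 fell after withdrawal (log2 fold changes -1.15 ± 0.32, -1.21 ± 0.31 and -1.66 ± 0.30 SE).

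The rises of MT-TN and MT-TC lost their call with limma-voom (adjusted p = 0.0593 and 0.0528) and with no filter on low counts (0.0595 and 0.0566). The fall of MT-TN did so without persister 1 and 5 (0.0660). MT-TN and MT-TC are separated by 31 bases with no annotated gene, and MT-TC and MT-TY share 1 base.

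MT-TK and MT-TS1 had at most 54 and 24 counts in a library. MT-TK fell after withdrawal (log2 fold change -1.30 ± 0.44 SE, adjusted p = 0.0269, edgeR), a call lost in 8 of 19 alternatives, among them the culture number as a block (adjusted p = 0.0682), limma-voom, and leaving out persister 1 or 3 or withdrawn 1, 2 or 3. MT-TS1 reached 10 counts only in persister 1 and 5, with 23 and 24 counts, against 0 to 7 in the other libraries, and was not called in either comparison (log2 fold changes 2.40 ± 1.68 and -1.56 ± 0.80, adjusted p = 0.294 and 0.121).

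As a share of the mitochondrial counts, the tRNAs made up 0.0852% in the parental library (95% Wilson interval 0.0812% to 0.0895%), 0.160% ± 0.025 in the persister and 0.0932% ± 0.0136 in the withdrawn libraries (SD, n = 5 each). The persister and withdrawn values did not overlap. Their difference of 0.0663 percentage points had an exact two-sided permutation p of 0.00794 and an adjusted p of 0.0106, which was 0.0833 with the cultures as pairs. The tRNAs thus made up a larger part of the mitochondrial counts in persister than in withdrawn cells.

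All mitochondrial genes together took 2.96% of the counts of the parental library (95% Wilson interval 2.954% to 2.962%). Persister libraries 1 to 5 gave 8.88%, 4.51%, 6.72%, 4.64% and 9.28%, and withdrawn libraries 3.15% to 3.70%. Persister libraries 2 and 4 were the lowest of their group, and all 5 lay above all withdrawn libraries. The difference of 3.26 percentage points had an exact two-sided permutation p of 0.00794 (adjusted p = 0.0106, and 0.0833 with the cultures as pairs).

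The persister libraries with the highest mitochondrial shares had the lowest levels of S phase genes. The mean log2 CPM of 30 such genes was 4.84, 6.05, 5.65, 5.70 and 3.86 in persister libraries 1 to 5, 6.27 in the parental library and 5.85 to 5.98 in the withdrawn libraries. Of the 30 genes, 3 were called lower and 0 higher in persister than in parental cells, a smaller share than the 15.1% of all genes called lower. All 30 had a log2 fold change below 0, with a median of -0.75 against 0.09 for all genes. For 18 of them all persister values lay below the parental value, which held for 30.9% of all genes. After withdrawal 6 of the 30 were called higher and 0 lower, where 24.5% of all genes were called higher. Persister library 2 lay above the S phase range of the withdrawn libraries, and persister libraries 1, 3, 4 and 5 below it. The mitochondrial shares of persister libraries 2, 3 and 4 were 4.51%, 6.72% and 4.64%. The part of cell division in the mitochondrial values was not tested.

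**Figure D5:**
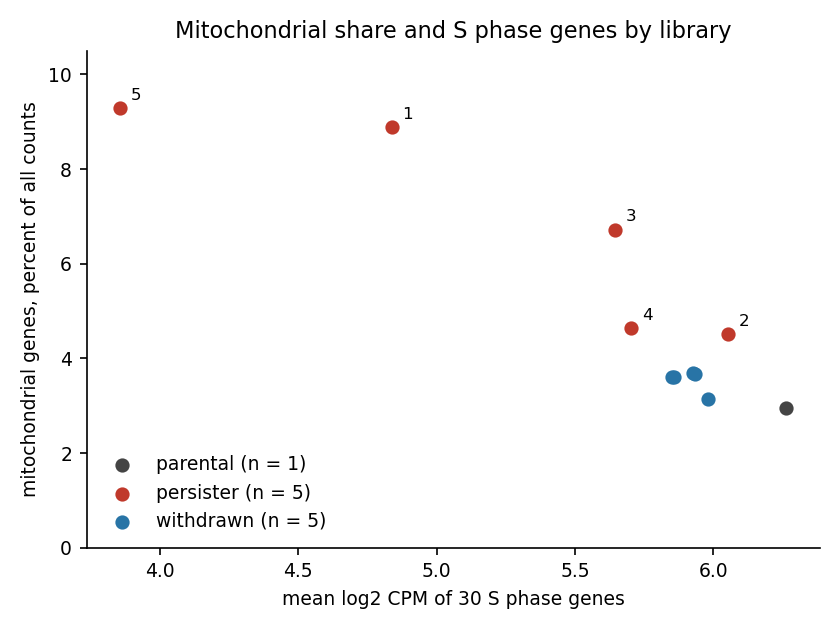
Mitochondrial genes as percent of all counts (vertical axis) against the mean log2 CPM of 30 S phase genes (horizontal axis) in the 11 libraries, with the persister libraries numbered. Persister 5 (3.86, 9.28%) and persister 1 (4.84, 8.88%) stand at the upper left, and the withdrawn libraries lie together at 3.15% to 3.70%.

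Mitochondrial genes have close copies in the nuclear genome, and reads can be assigned to either. Of 13 such copies 10 were tested, of which 8 were higher in persister than in parental cells (16.1% of all genes) and 9 were lower after withdrawal (28.0% of all genes). Over their aligned length, the 7 copies that lie in 1 block on chromosome 1 were 97.6% to 98.7% identical to their gene. MTND2P28 shares a run of 266 bases with MT-ND2 without a mismatch.

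The ratio of a copy's counts to those of its gene varied little for some copies and more for others. MTATP6P1 had 20.3 to 20.9 counts per 100 MT-ATP6 counts in all 11 libraries, and MTCO1P12 had 7.77 to 8.95 per 100 MT-CO1 counts. MTND2P28 had 30.3 counts per 100 MT-ND2 counts in the parental library, 25.0 to 26.7 in persister and 28.6 to 30.01 in withdrawn libraries. MTND1P23 had 0.883 to 1.13, MTCO3P12 1.20 to 1.61, MTCO2P12 0.341 to 0.457 and MTATP8P1 0.0277 to 0.0917 counts per 100 counts of their genes over the 11 libraries. With the reads of the 7 copies added to their genes, a check chosen after seeing the data, 13, 20 and 0 mitochondrial genes were called in the 3 comparisons, as without them. MT-RNR2 has further nuclear copies, the MTRNR2L genes, so its counts are uncertain to that extent.

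Most subunits of the complexes are encoded in the nucleus and imported, and many of them were called in the same direction as the mitochondrial genes. In persister against parental cells, where 16.1% of all genes were called higher, 21 of 37 nuclear complex I genes were higher and 1 was lower, 8 of 9 complex III genes were higher, as were 11 of 11 of complex IV and 12 of 17 of complex V, and none of the latter 3 groups was lower. Their median log2 fold changes were 0.77, 1.03, 1.17 and 0.66. After withdrawal, where 28.0% of all genes were called lower, 24 of 37, 8 of 9, 11 of 11 and 14 of 17 were lower, with medians of -0.48, -0.54, -0.85 and -0.62. The complex I gene that went the other way in both comparisons was NDUFV2, named after its values were seen, at 0.918 CPM in the parental library, 0.321 ± 0.143 in persister and 1.19 ± 0.25 in withdrawn libraries. Complex II, which has no mitochondrially encoded subunit, had 1 of 4 genes higher in persister cells and 1 of 4 lower after withdrawal. Between withdrawn and parental cells 0 genes of these 5 groups were called by edgeR.

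None of 17 genes listed for the transcription and copying of mitochondrial DNA was called higher in persister cells. Against the parental library, 5 of the 17 were lower in persister cells and 0 were higher, where 15.1% of all genes were called lower. The 5 include TFB1M, listed here although it is an rRNA methyltransferase. Their median log2 fold change was -0.22. After withdrawal 4 were higher, near the 24.5% of all genes, and 2 were lower, SSBP1 (log2 fold change -0.43, adjusted p = 0.00885) and TEFM (-0.38, adjusted p = 0.00392, edgeR). SSBP1, the single-stranded DNA binding protein, was named after its values were seen. TEFM is an elongation factor of POLRMT and shares 26.1% of its exon bases with other genes. POLRMT, the mitochondrial RNA polymerase, had 40.8 CPM in the parental library, 40.4 ± 6.3 in persister and 38.9 ± 1.5 in withdrawn libraries (SD, n = 5 each). Its log2 fold changes were -0.01 and -0.05 (adjusted p = 0.963 and 0.684, edgeR), and their sign turned in 4 of the alternatives.

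TFAM, which binds the promoters and packages the DNA, had 105.6 CPM in the parental library, 57.2 ± 14.2 in persister and 67.2 ± 1.9 in withdrawn libraries. It was lower in persister than in parental cells (log2 fold change -0.88, adjusted p = 0.0152) and not called after withdrawal (0.23, adjusted p = 0.203). MTERF1, a termination factor, was likewise lower (-0.62, adjusted p = 0.0192), and both lost the call in a fit of only the libraries compared (adjusted p = 0.112 and 0.128). TFB2M, which opens the promoter, had 102.4, 71.9 ± 11.4 and 84.3 ± 3.9 CPM, and its fall (-0.51, adjusted p = 0.0449) lost the call in 8 of 18 alternatives (no filter, the 2 groups alone, and without persister 3 or any 1 of the withdrawn libraries), at an adjusted p of up to 0.185.

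TFB1M, the methyltransferase that modifies the small-subunit rRNA MT-RNR1, had 35.5 CPM in the parental library, 12.9 ± 2.7 in persister and 60.1 ± 6.0 in withdrawn libraries. It was lower in persister cells (log2 fold change -1.46, adjusted p = 5.46e-04) and higher after withdrawal (2.22, adjusted p = 3.74e-07, edgeR). It shares 7.86% of its exon bases with TIAM2 on the opposite strand.

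Of 32 genes of mitochondrial RNA processing and stability, 3 were higher and 4 lower in persister cells, shares below those of all genes (16.1% and 15.1%). After withdrawal 5 were higher and 9 lower, the latter near the 28.0% of all genes. Besides FASTK, MRM1 and REXO2 were called higher in persister cells (log2 fold changes 0.99 and 0.61). FASTKD3, GTPBP3, PTCD2 and GRSF1 were the 4 called lower there (-0.99, -0.61, -0.53 and -0.39). REXO2, GTPBP3 and GRSF1 were named after their values were seen. FASTK, of which an isoform is needed for MT-ND6 mRNA, rose from 22.5 CPM in the parental library to 84.3 ± 19.99 in persister libraries and was 32.2 ± 3.3 in withdrawn libraries (log2 fold changes 1.91 and -1.39, adjusted p = 7.13e-04 and 1.47e-05, edgeR). LRPPRC, which stabilises the mRNAs, had 386.0, 273.0 ± 56.8 and 329.5 ± 10.2 CPM and was not called (adjusted p = 0.0970 and 0.0963). The poly(A) polymerase MTPAP had 31.4, 22.9 ± 4.6 and 27.9 ± 0.9 CPM and was not called either (adjusted p = 0.112 and 0.0702), although 33.1% of its exon bases are shared with other genes. Of 12 translation factors 2 were higher and 0 lower in persister cells, near the 16.1% of all genes called higher. MTIF3, an initiation factor, was among them (15.4 CPM against 39.0 ± 5.3, log2 fold change 1.34, adjusted p = 4.31e-04, edgeR). It shares 11.3% of its exon bases with GTF3A on the opposite strand. After withdrawal 5 of the 12 were lower and 1 was higher, where 28.0% of all genes were called lower and 24.5% higher.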

How the data were processed

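The deposited table held whole-number read counts of each gene, not normalized by the authors, in 11 columns, each a library of its own. The labels' protocols name a column kit for RNA and a stranded kit for poly(A) libraries. The submitters' processing notes name bcl2fastq, HISAT2, HTSeq and the build hg38. For these tools the versions, the strand setting, the annotation and the handling of multiply aligned reads were not given in the sources used here.

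Symbols, strands and 1-based GRCh38 coordinates came from GENCODE release 29, which held all 58721 IDs. The test was edgeR's quasi-likelihood test (edgeR 4.0.16, R 4.3.3, robust) with 3 groups in 1 fit of the 11 libraries. Low counts were removed with filterByExpr (minimum count 10, total 15), libraries were scaled by TMM, and p-values were adjusted by Benjamini-Hochberg across 23693 genes, with calls at an adjusted p under 0.05. Residual degrees of freedom were 8, all from persister and withdrawn libraries. CPM used TMM-scaled library sizes. A share of counts, in percent, was compared between persister and withdrawn libraries for 4 measures by exact two-sided permutation, adjusted over the 4. Wilson intervals and count floors cover counting error only.

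Alternatives were DESeq2 1.42.0, voom in limma 3.58.1, no low-count filter, no TMM, scaling on nuclear genes, 2-group fits, leaving out libraries and a replicate block. The mitochondrial genes, the lists and the tests were chosen with earlier results of these data known. Each mitochondrial gene was to be named or given by range. From each gene list the 3 members with the smallest adjusted p could be named, as could a few transcription, stability and copy genes. The test was tried on simulated counts with known changes. Titles name each withdrawn sample after a persister culture, which pairs them, and deviations of same-numbered libraries correlated at 0.0484 to 0.0909. Sequences come from the GENCODE transcripts. Protein sequences were not used here.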

Additional observations from a re-analysis of the deposited data

Results flagged for a closer look

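Of 54 groups of 5 libraries examined (23 genes and 4 shares in persister and withdrawn cells), 2 held a library that stood apart from the rest. Chance alone marks about 1 in 20 such groups. Withdrawn library 3 was the lowest of its group in both. Its MT-ND4L level was 668.4 CPM, where the other withdrawn libraries had 765.9 to 800.4 CPM (gap to the nearest over the whole range 0.739, against a critical value of 0.71). Its mitochondrial share of all counts was 3.153%, where the others had 3.613% to 3.701% (gap over range 0.84). The share of this library was below all persister libraries, as were those of the other withdrawn libraries, while its MT-ND4L level lay between persister 2 (632.8 CPM) and persister 3 (922.9 CPM). The cause was not tested.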

How the results depend on the processing

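The number of mitochondrial genes called moved by over 1.5 times with the 2 groups alone (3 for persister against parental and 9 for withdrawn against parental cells, where 1 sample stands against 5), and for withdrawn against parental cells with DESeq2 (1) and without persister 1 and 5 (1). With the 2 groups alone the calls over all genes moved the same way. They were fewer for persister against parental and far more for withdrawn against parental cells. Whether the mitochondrial genes moved more than all genes there was not tested. Leaving out 1 library at a time gave 13 to 17 calls for persister against parental and 18 to 22 for withdrawn against persister cells. For withdrawn against parental cells it gave 0 in all 10 runs. Over all genes these runs called 3326 to 4614 higher in persister than in parental cells and 5914 to 6851 lower after withdrawal. Between withdrawn and parental cells they called 19 to 374 higher and 4 to 184 lower. With the replicate block 18 of 22 mitochondrial genes were lower after withdrawal, where 5419 of all 19631 genes tested were called lower. The block changed no other call of the mitochondrial genes than those of MT-TK and MT-ATP8. A block against the parental library could not be fitted.

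With the replicate block the differences in share kept their size, 3.256 points for all mitochondrial genes, 2.767 for the rRNAs and 0.06634 for the tRNAs, at an adjusted p of 0.0833 that the number of pairs sets. Leaving out 1 library gave 2.637 to 3.829, 2.221 to 3.13 and 0.05885 to 0.07269 points. The MT-ND6 share gave -0.165 to -0.06467 points, the first without persister 5, and 0.106 with complex I mRNAs as the denominator.

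The log2 fold change of MT-ATP8 between withdrawn and parental cells was -0.009522 with DESeq2, -0.01331 without TMM, -0.0009495 with 2 groups, -0.01147 without withdrawn 2 and -0.0261 without withdrawn 4, and up to 0.05311 without withdrawn 3, against 0.01 with all libraries. Leaving out 1 library gave POLRMT -0.1086 (without persister 4) to 0.02932 (without persister 2) after withdrawal. Against the parental library it gave -0.09645 (without persister 2) to 0.04093 (without persister 5), with 0.03621 without persister 4, and without both persister 1 and 5 it was 0.0253. MT-ND4L turned to 0.06141 after withdrawal without persister 1 and 5. The cause was not tested. Among all genes, persister cells had 3819 calls above and 3572 below the parental library, which turned to 3059 and 3915 with voom and 3410 and 4041 without TMM. With these the 23 mitochondrial genes gave 11 and 13 higher and 0 lower. With no filter on low counts 8 of the 14 tRNA genes left out by it were tested, and 10 and 20 of 31 genes were called higher in persister cells and lower after withdrawal. In the same order, 3057 and 6512 of all 40697 genes tested were called. Of the other 6 tRNA genes no count was seen.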
